A study of Mus musculus with 37 samples.

Results

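The genes described are the nuclear-encoded respiratory chain and mitochondrial ribosome genes, chosen by name: symbols that begin with Nduf (complex I), Uqcr (complex III), Cox followed by a digit (complex IV and its assembly factors), Atp5 (ATP synthase), or Mrpl or Mrps followed by a digit (large and small mitochondrial ribosome subunits). Of 6509 named genes in the deposited expression table, 76 carried such a name, and all 76 reached the required value of 10 in at least 1 group. They were represented by 163 transcripts, and 34 of them by a single transcript. By role, 23 were complex I genes, 4 complex III subunits, 10 complex IV subunits, 3 complex IV assembly factors (Cox11, Cox15 and Cox17), 9 ATP synthase subunits, 19 large and 8 small subunit proteins of the mitochondrial ribosome.

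The respiratory chain sits in the inner mitochondrial membrane. Complexes I, III and IV pass electrons to oxygen and pump protons, and ATP synthase uses the proton gradient to make ATP. A few core subunits are encoded by mitochondrial DNA and are made by the mitochondrial ribosome, whose proteins, like most chain subunits, are encoded in the nucleus. Myeloid cells differ in how much they rely on this machinery, and macrophages exposed to lipopolysaccharide are known to turn towards glycolysis. The mitochondrially encoded subunits were not analysed here.

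RNA was sequenced from 5 myeloid cell types of C57Bl6cJ mice. The macrophages were adherent peritoneal cells elicited with thioglycollate, the neutrophils came from pooled bone marrow and were kept overnight with GM-CSF, and the dendritic cells (sDCs) were enriched from spleen. Eosinophils and mast cells had been differentiated in culture from marrow. Cells were left untreated, given IL-10 (an anti-inflammatory cytokine) at 100 ng/ml for 4 h, given LPS (lipopolysaccharide, a bacterial outer membrane component that activates TLR4) at 100 ng/ml for 4 h, or given IL-10 for 4 h and then LPS for a further 4 h. IL-10 was not given to eosinophils, so there were 18 groups, each of 2 replicates from different mice. Replicate 1 of the untreated and IL-10 macrophages re-used earlier data. As drawn in the study's treatment scheme, the groups without LPS were collected before the LPS period, so LPS and 4 h more in culture cannot be told apart.

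The table holds 1 value for each transcript and group, the authors' mean of 2 replicates after normalization, so no replicate spread, library depth or test was obtainable from it. Values were summed over each gene's transcripts. Differences are given as log2(value + 1), which understates the changes of genes with low values. A gene "rose" or "fell" when its value differed by 2-fold or more, without a test. Counts of such genes are set beside the background, the percentage of all genes that passed the same threshold. These are whole cell preparations, in which fewer cells of a type and less RNA per cell cannot be told apart.

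The preparations carried markers of their own cell type, with some RNA of other cells. Among untreated cells, Cd68 was highest in macrophages, Mpo and Cxcr2 in neutrophils, Kit and Tpsb2 in mast cells, Epx and Ccr3 in eosinophils, and Clec9a and Xcr1 in sDCs. The values of Clec9a (243.5) and Xcr1 (189.5) in untreated sDCs were low. With LPS, Clec9a had 49.5 in sDCs and 103.5 in neutrophils. Untreated sDCs also held Kit at 8800 and untreated neutrophils at 3906.5, against 122732 in mast cells. Of the held marker genes, 4 of 5 for macrophages, 5 of 6 for neutrophils, 2 of 3 for sDCs, 2 of 2 for mast cells and 3 of 3 for eosinophils had their highest untreated value in their own cell type. The exceptions were Itgam, with 136889 in neutrophils and 29511 in macrophages, Ly6g, with 188.5 in eosinophils and 161.5 in neutrophils, and Itgax. Itgax, the usual dendritic cell integrin, had 4075.5 in untreated sDCs against 13861 in macrophages. The neutrophil groups held the eosinophil gene Epx at 18734 to 22781.5. The sDC groups held Mpo at 4890 untreated, 4386 with IL-10, 714 with LPS and 731 with both. Erythroid genes were at least 2-fold above the mean of the other cell types for 5 of 5 held in neutrophils and 4 of 5 in sDCs, and lymphocyte genes for 2 of 3 and 3 of 3. The part of these other cells in the results below was not tested. Tnf rose with LPS in all 5 cell types, by 1.92 (eosinophils) to 8.02 (macrophages) on the log2 scale. Il12b, a macrophage and dendritic cell cytokine subunit, also rose in all 5, by 3.13 to 10.87, and Nos2 rose by 6.87 to 8.39 in the 4 cell types where it could be compared.

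Promoters are shown first because some letters there were more frequent in the members than in all genes, and the naming rule did not use them. RefSeq promoters were found for 64 of the 76 members, and the window from 250 bases before to 50 bases after the annotated start was searched on both strands. The letters GCGCANGCG, from the motif of the respiratory gene regulator NRF1, stood in 21 of 64 members (32.8%), against 14.5% of the 5239 table genes with a promoter and 7.03% of all 27025 genes with one. The ETS letters CCGGAAG also stood in 17 of 64 (26.6%), against 18.6% and 9.93%. The YY1 letters AAGATGGC stood in 11 of 64 (17.2%), against 5.10% and 3.19%. In all, 54.7% of the members, 29.8% of the table genes and 15.5% of all genes held NRF1 or ETS letters. The NF-kB letters GGANTTTCC were in 0 of 64 members, against 1.83% of the table genes and 1.45% of all genes. The interferon response letters GAAANNGAA were in 7 of 64 (10.9%), against 9.64% and 9.76%. For both, the members were near the other genes. A match is a string of letters and not a measured binding site.

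The printed promoters are those with several stretches of NRF1 letters (Ndufb4, Cox6a1, Mrpl32), with YY1 letters (Mrpl32, Atp5j), and of the member that rose in sDCs and the one with the largest fall in macrophages (Mrps6, Mrpl42). They were picked after the values were seen, as were the letters searched. The NRF1, NF-kB and interferon response letters were shortened after a first search with longer strings, and shorter strings match more promoters. Each is the 250 bases upstream in RefSeq GRCm38.p6, read 5′ to 3′ on the gene's strand, with the letters found in capitals; NRF1 matches on the 2 strands may overlap in 1 stretch of capitals. Ndufb4 (chr16:37654369-37654618, minus strand) has 3 stretches of NRF1 letters. Cox6a1 (chr5:115348959-115349208, minus strand) has 2 stretches of NRF1 letters and then ETS letters. Mrpl32 (chr13:14613038-14613287, minus strand) has YY1 letters and then 2 stretches of NRF1 letters. Atp5j (chr16:84834977-84835226, minus strand, 1 of its 2 promoters) has YY1 and then ETS letters. Mrps6 (chr16:92058086-92058335, plus strand) and Mrpl42 (chr10:95501950-95502199, minus strand) have none of the letters.
Ndufb4: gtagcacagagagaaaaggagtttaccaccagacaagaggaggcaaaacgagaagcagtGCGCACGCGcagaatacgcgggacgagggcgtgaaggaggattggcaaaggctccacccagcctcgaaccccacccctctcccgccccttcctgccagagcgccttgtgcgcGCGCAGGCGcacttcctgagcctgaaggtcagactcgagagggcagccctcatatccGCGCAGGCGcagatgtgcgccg
Cox6a1: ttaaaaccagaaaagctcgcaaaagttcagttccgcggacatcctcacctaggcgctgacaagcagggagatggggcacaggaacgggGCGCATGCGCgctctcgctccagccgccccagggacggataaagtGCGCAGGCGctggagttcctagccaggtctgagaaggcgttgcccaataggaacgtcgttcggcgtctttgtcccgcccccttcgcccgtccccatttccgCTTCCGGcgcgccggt
Mrpl32: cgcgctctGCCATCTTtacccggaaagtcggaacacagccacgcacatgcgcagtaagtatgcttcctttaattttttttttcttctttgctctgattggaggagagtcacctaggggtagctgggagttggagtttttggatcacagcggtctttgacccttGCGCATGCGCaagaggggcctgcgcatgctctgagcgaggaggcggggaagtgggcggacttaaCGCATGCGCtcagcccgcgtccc
Atp5j: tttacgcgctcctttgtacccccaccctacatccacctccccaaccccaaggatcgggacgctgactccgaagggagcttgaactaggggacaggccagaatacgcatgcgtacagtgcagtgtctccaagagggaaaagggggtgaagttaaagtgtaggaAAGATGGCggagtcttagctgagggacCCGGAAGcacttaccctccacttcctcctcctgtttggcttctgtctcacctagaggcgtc
Mrps6: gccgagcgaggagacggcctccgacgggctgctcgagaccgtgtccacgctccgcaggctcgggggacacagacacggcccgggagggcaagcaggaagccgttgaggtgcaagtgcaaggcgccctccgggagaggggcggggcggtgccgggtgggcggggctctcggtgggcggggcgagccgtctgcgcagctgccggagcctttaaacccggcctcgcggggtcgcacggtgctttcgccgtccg
Mrpl42: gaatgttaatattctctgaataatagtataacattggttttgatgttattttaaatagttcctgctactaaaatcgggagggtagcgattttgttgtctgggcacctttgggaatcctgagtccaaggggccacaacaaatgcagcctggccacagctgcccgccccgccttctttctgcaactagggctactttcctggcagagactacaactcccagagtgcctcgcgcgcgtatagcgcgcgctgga

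In untreated cells, the members were highest in macrophages and lowest in mast cells and sDCs. Each value was compared with the mean log2 level of the other 4 cell types, and the median member difference was 0.55 in macrophages, 0.23 in eosinophils, 0.16 in neutrophils, −0.52 in mast cells and −0.40 in sDCs. The medians over all 6470 genes were between −0.08 and 0.04. Macrophages had the highest value for 43 of the 76 members, eosinophils for 16, neutrophils for 8, sDCs for 6 and mast cells for 3. Mast cells had the lowest value for 33 and sDCs for 31. Both of these lay below all 3 other cell types for 43 members (56.6%), against 12.1% of all genes.

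**Figure D1:**
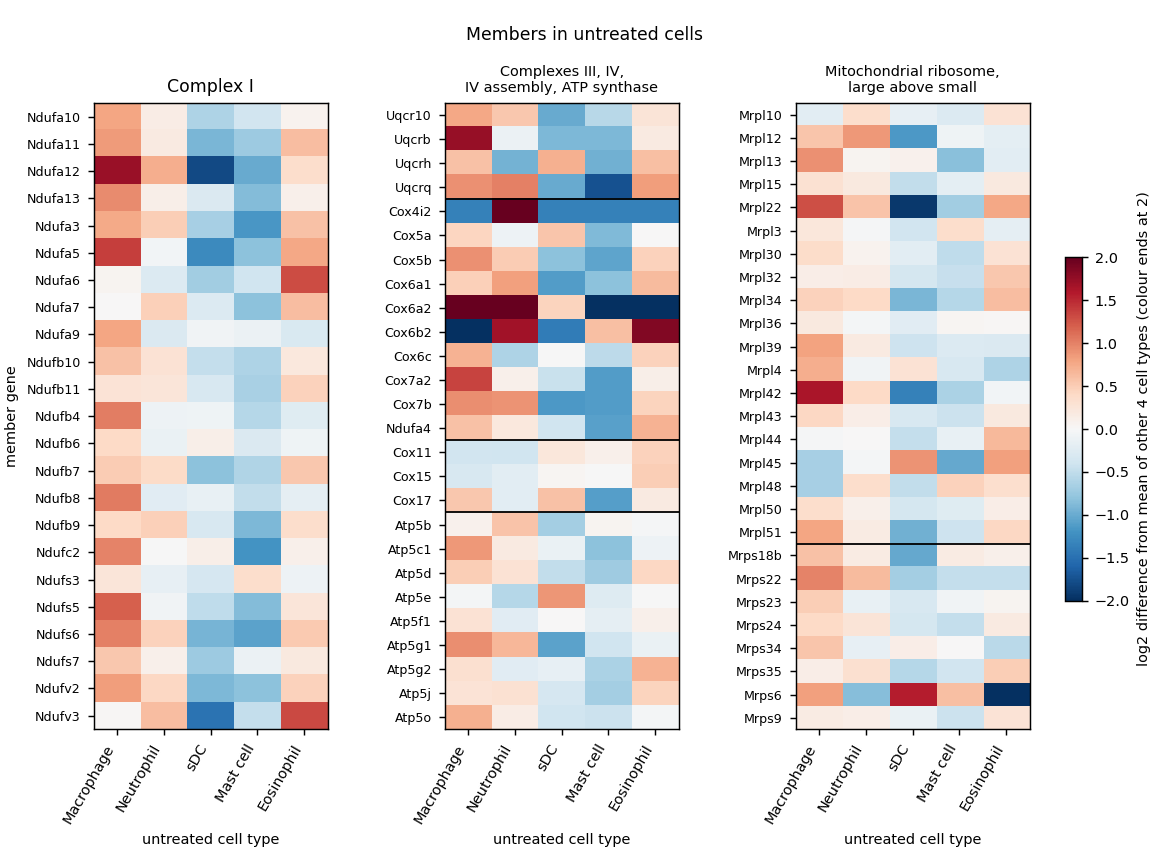
Difference of each of the 76 members from the mean of the other 4 untreated cell types, on the log2(value + 1) scale (colour, cut at 2), with members in rows and cell types in columns. Red prevails in the macrophage column, where 67 members were above 0, and blue in the sDC (61 below 0) and mast cell (66 below 0) columns.

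By 2-fold, 11 members were higher in macrophages and 2 lower (background 21.5% and 19.5%). In neutrophils 4 were higher and 0 lower (15.9% and 16.7%), and in eosinophils 3 and 3 (14.9% and 22.8%). In sDCs 1 was higher and 14 lower (19.4% and 18.9%), and in mast cells 0 were higher and 13 lower (17.6% and 23%). The shares of members past 2-fold were at or below those of all genes in every cell type. At 1.5-fold this was no longer so. By that threshold 36 members were higher and 4 lower in macrophages (background 29.7% and 28.8%), 4 and 28 in sDCs (26.7% and 29.6%), and 2 and 34 in mast cells (27.8% and 30.3%), so that the members' share was above that of all genes for macrophages higher, sDCs lower and mast cells lower. Short genes showed this too: of the 343 genes whose longest transcript was under 1000 bases, 151 were higher in macrophages at 1.5-fold. Of the same 343, 135 were lower in sDCs and 157 in mast cells. Of the members, 11 were higher and 3 lower in neutrophils (22.9% and 26.4%), and 15 and 4 in eosinophils (22.8% and 29.9%). The median range over the 5 cell types was 2.29-fold for members and 4.09-fold for all genes, and 49 members (64.5%) ranged by 2-fold or more, against 79.4% of all genes.

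Complex I, which oxidises NADH and is the largest complex of the chain, showed the split in most of its genes. All 23 were above 0 in macrophages (median 0.79), 21 were below 0 in sDCs (−0.51) and 22 in mast cells (−0.66), and 17 of 23 had both of these below the other 3 cell types. Ndufa12, an accessory subunit, had 1827 in macrophages, 1042 in neutrophils, 852.5 in eosinophils, 401 in mast cells and 256 in sDCs. Ndufa5 had 816, 367.5, 582.5, 241.5 and 187.5 in the same order. Both genes thus had their highest level in macrophages and their lowest in sDCs. Ndufv3 was ordered differently, with 3081.5 in eosinophils, 2075 in neutrophils, 1495 in macrophages, 1131 in mast cells and 648 in sDCs. Ndufs3, a core subunit, ranged by only 1.47-fold, from 626 in sDCs to 918 in mast cells.

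In complex III, which passes electrons to cytochrome c, all 4 genes were above 0 in macrophages and below 0 in mast cells. Uqcrq had 2481.5 in neutrophils, 2355 in macrophages, 2269.5 in eosinophils, 813 in sDCs and 539.5 in mast cells. The first 3 of these lay close together, and mast cells and sDCs well below them. Uqcrh, the hinge protein, did not follow this order, with 2661 in sDCs, 2496.5 in eosinophils, 2480 in macrophages, 1062 in neutrophils and 1054 in mast cells.

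Complex IV, cytochrome c oxidase, held the 3 members with the widest ranges, all of them tissue isoforms with low values. Cox6a2, the heart and muscle form of subunit VIa, had 159 in untreated neutrophils, 77.5 in macrophages, 28.5 in sDCs, 4 in eosinophils and 2.5 in mast cells. Its general counterpart Cox6a1 had 5317, 4400.5, 1814.5, 4764 and 2132 in the same order. Per kilobase of transcript, Cox6a2 made 2.53% of the Cox6a1 and Cox6a2 total in neutrophils, 1.51% in macrophages, 1.35% in sDCs, 0.0728% in eosinophils and 0.102% in mast cells. Cox4i2, the oxygen-regulated isoform of subunit IV, had 41, 45, 25 and 27 in neutrophils that were untreated or given IL-10, LPS or both, and was listed at 0 in the other 14 groups. Cox6b2, known as the testis form of subunit VIb, had 69 in eosinophils, 62.5 in neutrophils, 34 in mast cells, 10.5 in sDCs and 4.5 in macrophages, an order unlike that of the other complex IV genes. Among the latter, Cox7a2 had 2455.5 in macrophages and 624 in mast cells, with 910.5 to 1247.5 in the other 3.

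The 3 assembly factors of complex IV did not share the split. None of them had mast cells and sDCs both below the other cell types. Cox17, a copper chaperone for the oxidase, had 1649.5 in sDCs, 1615.5 in macrophages, 1318 in eosinophils, 1065 in neutrophils and 650 in mast cells. Cox11, which delivers copper to subunit I, had 152.5 in eosinophils, 133.5 in sDCs, 125 in mast cells, 95 in macrophages and 94 in neutrophils.

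Of the ATP synthase genes, 5 of 9 ranged by 2-fold or more and 5 of 9 had mast cells and sDCs both lowest. The widest was Atp5g1 (3.02-fold). Atp5f1, subunit b of the stalk, had the second smallest range of all members (1.33-fold), from 4045 in neutrophils to 5383 in macrophages. The paralogs Atp5g1 and Atp5g2 encode the same mature ring subunit. Per kilobase, Atp5g2 made 61.3% of their total in untreated macrophages, 57.0% in neutrophils, 66.2% in mast cells, 77.7% in sDCs and 78.5% in eosinophils.

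Of the ribosome genes, 10 of 19 large and 3 of 8 small subunit members had mast cells and sDCs both lowest. Mrpl42 had 1444 in macrophages, 726 in neutrophils, 562.5 in eosinophils, 411 in mast cells and 275 in sDCs. Mrpl22, which lines the ribosome near its exit tunnel, had 526.5, 353.5, 394.5, 174 and 88 in the same order. Mrpl36, with the smallest range of all members (1.27-fold), had 649, 567, 590.5, 594 and 510. Mrpl10 and Mrps9 ranged by 1.42-fold and 1.47-fold. Mrps6 ran the other way, with 399 in sDCs, 262.5 in macrophages, 233 in mast cells, 103.5 in neutrophils and 50.5 in eosinophils.

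The split between cell types goes with library preparation and with transcript length. All sDC libraries and replicate 2 of each mast cell group were TruSeq preparations in the study's library list, and the other cell types are not listed so. The cell type and the preparation cannot be told apart in group means. Members are short, with a median longest transcript of 1076.5 bases against 3065 for all genes, and 46.1% of them are under 1000 bases against 5.35%. All genes under 1000 bases had median differences of 0.45 in macrophages, 0.29 in eosinophils, −0.02 in neutrophils, −0.51 in mast cells and −0.35 in sDCs, in the order of the members' own medians. For 29.2% of them mast cells and sDCs were both below the other 3. The 41 members of 1000 bases or more had medians of 0.54 in macrophages, −0.38 in sDCs and −0.39 in mast cells, where all genes of that length had −0.01, −0.07 and 0.08. At this cut members were not matched with genes of like length, and the part of length was not tested.

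LPS was compared with no treatment in each cell type, and LPS after IL-10 with IL-10 alone, which uses other libraries. In macrophages the members lay lower with LPS by a small amount. Their median change was −0.31 against −0.15 for all genes, and 58 of 75 (77.3%) were below 0, against 58.6% of all genes. Relative to the all-gene median, 52 were below and 23 above. All genes under 1000 bases had a median of −0.23, with 66.4% below 0. The 34 shorter members had −0.33 and the 41 longer ones −0.25, where all genes of 1000 bases or more had −0.15. Of 75 members, 2 rose and 2 fell (background 12.6% and 14.7%). After subtracting the all-gene median, 2 rose and 1 fell. Both shares of members were below the background. On IL-10 the median was −0.16 against −0.09, 1 member rose and 2 fell (background 9.92% and 12.3%), and 51 of 74 members were below 0 in both comparisons, as were 2984 of 5918 genes.

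By role in macrophages, 22 of 23 complex I genes lay below 0 (median −0.38, from −0.75 to 0.00), as did 8 of 9 ATP synthase genes (−0.36), 3 of 4 complex III and 7 of 9 complex IV genes (−0.36). The ribosome genes were less uniform, with 12 of 19 large (median −0.16) and 6 of 8 small subunit genes (−0.16) below 0. Relative to the all-gene median, 21 of 23 complex I and 7 of 9 ATP synthase genes were below, but 10 of 19 large and 4 of 8 small subunit genes. On IL-10 the complex I count was 21 of 23 (median −0.43), and the large subunit genes divided 10 above and 9 below 0. The 3 complex IV assembly factors were all above 0 with LPS alone, at 0.22 to 0.48.

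The members that fell in macrophages belonged to different complexes. Mrpl42 had 1444 untreated, 1279 with IL-10, 592 with LPS and 460.5 with both, a change of −1.28 with LPS and −1.47 on IL-10. Both groups with LPS were below both groups without it. Atp5c1, the rotating gamma subunit of ATP synthase, had 5664.5, 5180.5, 2795 and 2658.5 (−1.02 and −0.96), which is at the threshold. Uqcrh had 2480, 2591.5, 1284.5 and 932 (−0.95 and −1.47). Its value with LPS was lowest where IL-10 came first.

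Cox6a2 was the one member that rose in macrophages at more than a marginal level. It had 77.5 untreated, 96.5 with IL-10, 394 with LPS and 320 with both, a change of 2.33 with LPS and 1.72 on IL-10. Per kilobase its part of the Cox6a1 and Cox6a2 total was 1.51%, 2.22%, 10.3% and 8.49% in these groups, while Cox6a1 had 4400.5, 3690, 2966 and 2997. No such rise was seen in neutrophils (159 and 165) or sDCs (28.5 and 25), which also expressed it. Cox6b2 passed 2-fold in macrophages from 4.5 to 13.5, both low values.

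**Figure D2:**
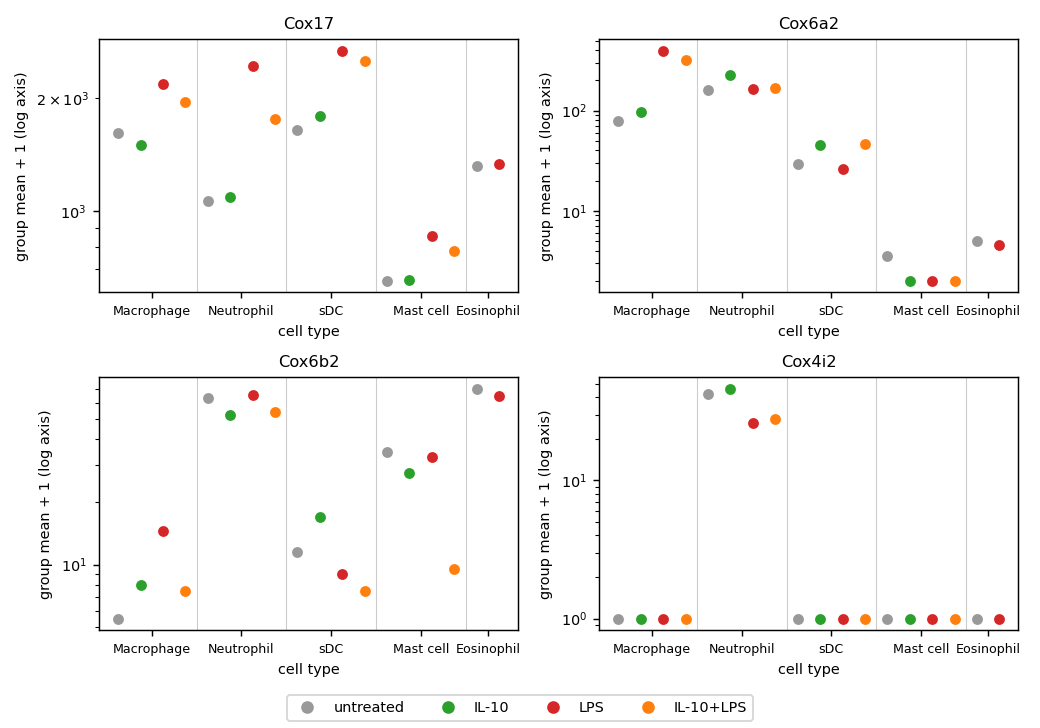
Deposited group means plus 1 (log axis) of Cox17, Cox6a2, Cox6b2 and Cox4i2 in the 18 groups, coloured by treatment, with 1 point a group and no error bars because replicates are averaged. Cox6a2 is higher in both macrophage groups with LPS (394 and 320), Cox17 is higher with LPS in neutrophils (2446 against 1065), and Cox4i2 is above 0 in neutrophils alone.

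In neutrophils the median member change with LPS was 0.03 against −0.03 for all genes. Of 76 members, 1 rose and 0 fell (background 8.71% and 7.82%). The gene was Cox17, with 1065 untreated, 1086.5 with IL-10, 2446 with LPS and 1758 with both. Its change was 2.30-fold with LPS and 1.62-fold on IL-10, where 0 members rose and 0 fell (5.82% and 5.54%). In the other cell types Cox17 differed by 0.43 (macrophages), 0.70 (sDCs), 0.39 (mast cells) and 0.02 (eosinophils) on the log2 scale, without reaching 2-fold. IL-10 before LPS put it lower than LPS alone in all 4 cell types tested, by −0.48 in neutrophils and by −0.15 to −0.09 in the others, none of which is 2-fold. Complex I genes divided 8 above and 15 below 0.

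In sDCs the median was 0.04 against −0.14, 1 of 75 members rose and 0 fell (background 8.98% and 11.4%). Mrps6, a protein of the small mitochondrial ribosome subunit, had 399 untreated, 408 with IL-10, 1717 with LPS and 1365.5 with both, which is 2.10 with LPS and 1.74 on IL-10. Both groups with LPS were over 3 times those without it. On IL-10, 1 member rose (Mrps6) and 1 fell (background 7.65% and 9.28%). The latter was Cox6b2, from 16 to 6.5. No other small subunit gene passed 2-fold in sDCs, and in the other cell types Mrps6 changed by −0.14 to 0.28 with LPS.

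The Mrps6 value may hold reads of a neighbour. In the NCBIM37 annotation Mrps6 lies on chromosome 16 from 92058515 to 92112472 (plus strand, 3 exons, 846 bases), and Slc5a3, a myo-inositol transporter gene, lies on the same strand from 92058567 to 92087718 (2 exons, 10913 bases), with its second exon in the first Mrps6 intron. They share 159 exonic bases of the first exon, 18.8% of Mrps6 and 1.46% of Slc5a3. Slc5a3 had 334, 302, 1720 and 1021 in the sDC groups in the same order as Mrps6 above, a change of 2.36 with LPS and 1.75 on IL-10. In mast cells the 2 genes moved apart, with Mrps6 at 233, 244.5, 282.5 and 359 and Slc5a3 at 409.5, 283.5, 331.5 and 280. How reads of the shared exon were divided was not tested, so the size of the Mrps6 change is uncertain.

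**Figure D3:**
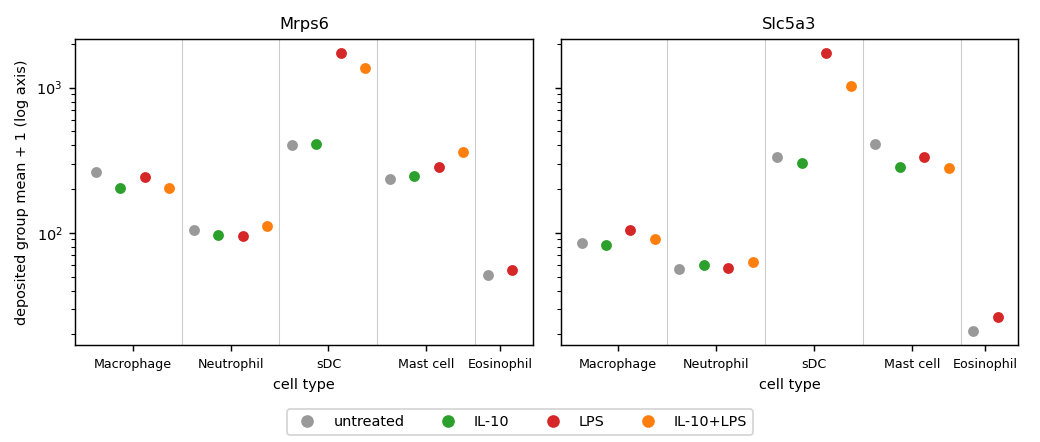
Deposited group means plus 1 (log axis) of Mrps6 and of Slc5a3, which shares its first exon, in the 18 groups coloured by treatment, with 1 point a group and no error bars. Both genes are highest in sDCs with LPS (1717 and 1720), and in the other cell types the points of each gene lie within 2-fold of each other.

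In mast cells the members lay higher with LPS, in the opposite direction to macrophages, a difference that could not be tested. The median was 0.19 against −0.08 for all genes, and 59 of 74 (79.7%) were above 0, against 39.5% of all genes, although 0 rose and 0 fell (background 4.71% and 5.41%). After subtracting the all-gene median, 1 rose, Atp5f1. On IL-10 the median was 0.21 against −0.05, with 0 members up and 1 down (3.61% and 4.86%), and 54 of 74 members were above 0 in both comparisons, as were 1753 of 5616 genes. All 9 ATP synthase genes (median 0.27), all 4 complex III genes (0.34), 20 of 23 complex I genes (0.21) and 7 of 8 complex IV genes (0.31) were above 0. The large ribosome subunit was divided, with 11 of 19 above 0 (median 0.02) and 15 of 19 above the all-gene median. Atp5f1 had 4162.5 untreated, 6691 with IL-10, 8071.5 with LPS and 11311.5 with both, a change of 0.96 with LPS and 0.76 on IL-10. It was higher with each agent than without it. All genes under 1000 bases had a median of 0.11 in mast cells with LPS, with 60.9% above 0. The 33 short members had 0.26 and the 41 longer ones 0.08, where all genes of 1000 bases or more had −0.09.

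In eosinophils the members hardly differed with LPS. The median was −0.04 against −0.02, the changes lay between −0.28 and 0.43, and 0 of 74 rose or fell (background 2.16% and 0.702%). The highest was Mrpl45, with 1311 untreated and 1765.5 with LPS, chosen after its value was seen. No member rose or fell by 2-fold with LPS in 3 or more cell types. Mrps35, singled out after its values were seen, lay below 0 in all 5, at −0.90, −0.61, −0.64, −0.28 and −0.11, in the order macrophages, neutrophils, sDCs, mast cells, eosinophils. Mrpl42, Mrpl44 and Ndufv3, also picked after their values were seen, lay below 0 in all 5 as well. The share of all genes that did so was not computed.

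**Figure D4:**
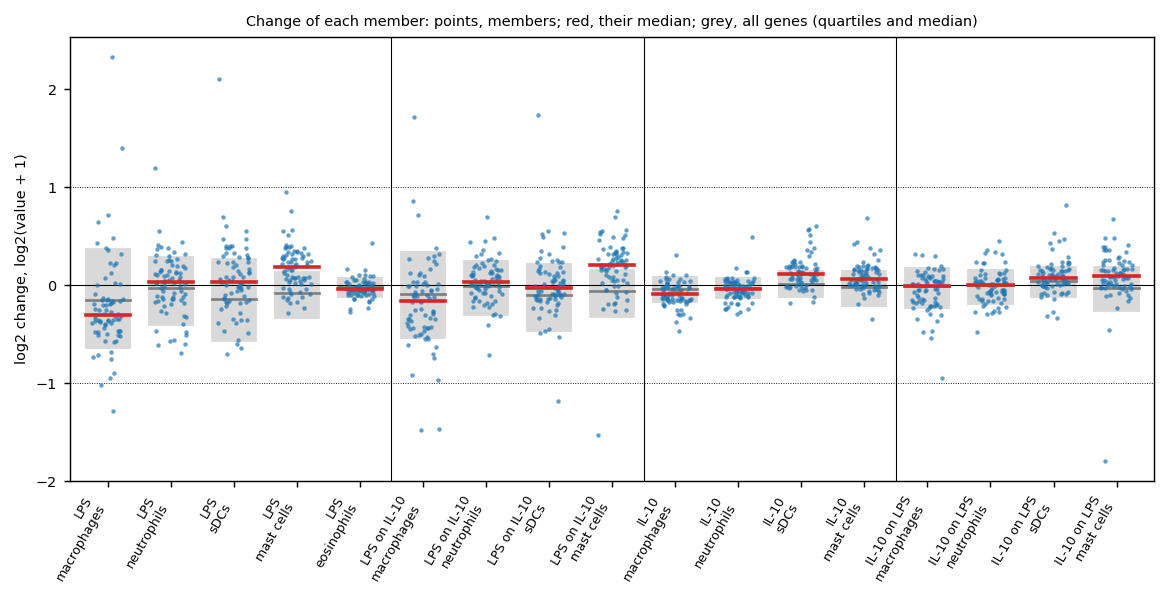
Change of each member (blue points, log2(value + 1) scale) in the 17 treatment comparisons, with the members' median in red and the median and quartiles of all genes in grey; dotted lines mark 2-fold. The red line lies below the grey one in macrophages with LPS (−0.31 against −0.15) and above it in mast cells (0.19 against −0.08), and IL-10 comparisons lie close to 0.

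IL-10 alone moved no member by 2-fold in macrophages (background 2.02% higher and 1.8% lower), neutrophils (1.12% and 0.618%), sDCs (1.46% and 0.723%) or mast cells (2.12% and 2.67%). The median changes were −0.09, −0.04, 0.12 and 0.07, where all genes had −0.04, −0.03, 0.01 and −0.02. In sDCs 60 of 75 members (80.0%) lay above 0, against 52.5% of all genes and 71.9% of all genes under 1000 bases, which had a median of 0.11 there. The widest member changes were 0.68 for Atp5f1 in mast cells and 0.61 for Cox6a2 in sDCs.

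IL-10 given before LPS, compared with LPS alone, moved no member by 2-fold in macrophages (background 2.89% higher and 4.28% lower), neutrophils (2.96% and 3.69%) or sDCs (2.4% and 2%). In mast cells 0 rose and 1 fell (2.78% and 4.55%), which was Cox6b2, from 32 to 8.5. The medians were −0.01, 0.00, 0.08 and 0.10, against −0.01, 0.00, 0.04 and −0.02 for all genes. In contrast Il12b fell in all 4, with log2 changes of −7.20 to −2.72. The lower complex I values in LPS-treated macrophages were not higher after IL-10, with 9 of 23 genes above and 14 below 0 (median −0.14).

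In the 17 treatment comparisons, member shares past 1.5-fold were below those of all genes in both directions. With LPS, 4 members were higher and 8 lower in macrophages (background 19.4% and 26.9%), 1 and 3 in neutrophils (14.7% and 17.1%), 3 and 3 in sDCs (14.6% and 24%), 2 and 0 in mast cells (7.99% and 13.1%), and 0 and 0 in eosinophils (3.63% and 2.21%). With LPS on IL-10, 3 were higher and 8 lower in macrophages (17% and 23.5%), 1 and 1 in neutrophils (11.2% and 13.3%), 1 and 1 in sDCs (13% and 19.5%), and 2 and 1 in mast cells (6.83% and 13%). With IL-10 alone none passed in macrophages (4.64% and 4.48%) or neutrophils (2.9% and 2.52%), and 1 was higher in sDCs (4.1% and 3.1%) and in mast cells (4.38% and 8.02%). With IL-10 on LPS, 1 was lower in macrophages (7% and 9.61%), none passed in neutrophils (5.94% and 8.57%), 1 was higher in sDCs (5.82% and 5.7%), and 1 was higher and 1 lower in mast cells (7.4% and 11.1%).

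Sums over transcripts can hide shifts between them. The 2 cases below were singled out after their values were seen. Mrpl48, a large ribosome subunit gene, changed by 0.72 with LPS in macrophages. A protein-coding transcript, ENSMUST00000062093 (NCBIM37 chromosome 7, 107697631 to 107731644, minus strand, 8 exons), had 612.5 untreated, 633 with IL-10, 469 with LPS and 508 with both. A processed transcript, ENSMUST00000127253 (107746340 to 107756152, 2 exons, 706 bases), had 279.5, 281, 1097.5 and 1079. The change was −0.38 in the first and 1.97 in the second, which carried the whole increase of the gene. The 2 transcripts share 0 exonic bases, and 53 bases of the second lie over an exon of Rab6 on the opposite strand. Whether the counting took strand into account is not stated in the sources read. Across untreated cells ENSMUST00000062093 made 63.3% of the gene's value in macrophages, 38.0% in sDCs, 36.0% in neutrophils, 34.3% in eosinophils and 14.4% in mast cells. Another protein-coding transcript, ENSMUST00000150042, was not counted as coding in these percentages. It shares 919 exonic bases with ENSMUST00000062093 and 1865 with the gene D630004N19Rik.

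**Figure D5:**
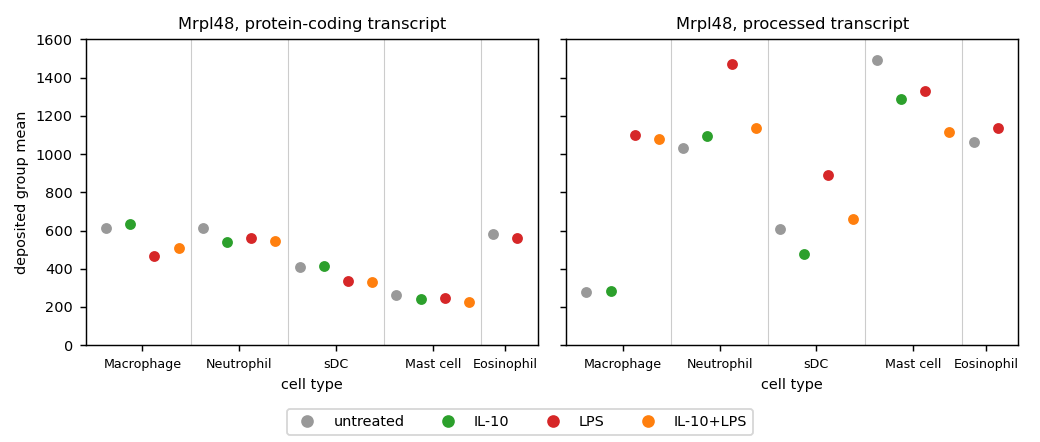
Deposited group means (linear axis from 0) of a protein-coding (ENSMUST00000062093) and a processed (ENSMUST00000127253) transcript of Mrpl48 in the 18 groups, coloured by treatment, with 1 point a group and no error bars. In macrophages the processed transcript is higher with LPS (1097.5 against 279.5) and the coding transcript is lower (469 against 612.5).

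For Atp5f1, a transcript annotated for nonsense-mediated decay, ENSMUST00000133320, made 29.5% of the gene's value in untreated macrophages and 12.1% with LPS, and 31.6% with IL-10 and 21.9% with both. In neutrophils the same shares were 43.3%, 12.3%, 30.9% and 22.2%. The share was thus lower with LPS in both cell types, with and without IL-10, while in eosinophils it was 43.7% untreated and 48.2% with LPS. In sDCs the transcript had 259.5 of 4584 untreated, 258 of 3888.5 with LPS, 608 of 4955.5 with IL-10 and 178 of 4525 with both. In mast cells it had 705 of 4162.5, 1233 of 8071.5, 1113 of 6691 and 1947.5 of 11311.5 in that order. In neither was the share lower with LPS both with and without IL-10. Restricting all genes to the 102 protein-coding member transcripts and their counterparts moved no member median by over 0.1 and no count by over 1.5 times.

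Other mitochondrial gene lists were compared in the same way. The background with LPS was 12.6% higher and 14.7% lower in macrophages, 8.71% and 7.82% in neutrophils, 8.98% and 11.4% in sDCs, 4.71% and 5.41% in mast cells and 2.16% and 0.702% in eosinophils. Of a list of complex II and cytochrome c genes, 3 of 8 were held. They include Cyc1, which encodes cytochrome c1, a complex III subunit that the naming rule did not take. With LPS in macrophages 0 of them rose and 1 fell. Sdha, the flavoprotein of succinate dehydrogenase, had 8191.5 untreated, 7357.5 with IL-10, 3625.5 with LPS and 3939 with both (−1.18 with LPS). Of other assembly factors 8 of 24 were held, and all 8 were below 0 with LPS in macrophages (median −0.69; 0 rose and 2 fell, of which Tmem126b, a complex I assembly factor, went from 451.5 to 172). Lyrm7, a complex III assembly factor, had 18 untreated and was listed at 0 with LPS. In neutrophils 1 of the 8 fell (Lyrm7, 34.5 to 10.5) and in sDCs 1 of 7 (Bcs1l, also of complex III assembly, 137.5 to 68), with medians of −0.31 and −0.56. Of mitochondrial translation genes 12 of 34 were held, 0 rose and 2 fell in macrophages, Nars2 (140 to 34.5) and Vars2 (219 to 79.5), both mitochondrial tRNA synthetases. The share that fell was near the background. Of protein import genes 14 of 29 were held and 0 rose or fell with LPS in any cell type.

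Of regulators of mitochondrial transcription and biogenesis 10 of 19 were held. With LPS, 0 rose and 1 fell in macrophages, 1 rose and 1 fell in sDCs, 1 of 9 rose and 1 fell in mast cells, and 0 rose or fell in neutrophils or eosinophils. These calls were of 3 genes, and Pprc1, Gabpa, Yy1, Tfam, Polrmt, Peo1 and Nrip1 passed 2-fold with LPS in no cell type. Ppargc1a, which encodes the coactivator PGC-1alpha, had 58 in untreated macrophages, 37 with IL-10, 3.5 with both, and was listed at 0 with LPS. In sDCs it had 139.5 untreated and 200 with LPS. Myc rose in sDCs with LPS, from 176.5 to 522.5, and fell in mast cells, from 1741 to 626. Polg2, the accessory subunit of the mitochondrial DNA polymerase, rose in mast cells from 105.5 to 488 and fell in sDCs from 145.5 to 66.5.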

How the data were processed

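RNA-seq libraries of 36 samples in 18 groups were summarised by the authors in 1 transcript table. A further sample, activated CD4 T cells, was not analysed here. Per the labels, reads were aligned to mm9 with Bowtie 0.12.9 and estimated with RSEM 1.2.1, and per the methods GC content was normalised with EDASeq. The deposited values are scores on a normalised scale (1 mean of 2 replicates per group, 100% of them multiples of 0.5, with 185338 as the highest value of each group), so no counts, totals, intervals or limits for values of 0 could be given, and none of the differences has a replicate check. Depth per library is not in the table, and precision is limited by the 2 replicates. Many respiratory chain and ribosomal protein genes have processed pseudogenes, and RSEM divides reads among similar transcripts.

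Of 17016 lines, 1 was incomplete and 22 (0.129%) had no gene name. The other 16993 transcripts were summed to 6509 genes in Python 3.11.15 with pandas 2.3.3 and numpy 2.4.6. A gene entered a comparison with 10 or more in either group (untreated cell types: in any). Changes are differences of log2(value + 1), called at 2-fold. Transcript lengths, types and exons came from GENCODE for NCBIM37 (mm9). Scripts were tested on simulated data. The named genes are the members past 2-fold (all where 6 or fewer), the 10 with the widest and 5 with the narrowest range over untreated cells, the isoform families, list genes past 2-fold in 3 or more comparisons or used as checks, and those said to be picked after their values were seen. Cox11, the marker genes, and Sdha, Cyc1, Tmem126b, Bcs1l, Nars2, Vars2 and the uncalled regulators, which make up small counts, were also named after their values were seen. Members and gene lists were chosen with earlier results of these data known.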

Additional observations from a re-analysis of the deposited data

How the results depend on the processing

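No paired analysis was possible because the table holds group means, and leaving out replicates could not be run for the same reason. Of 132 median changes under the alternatives, 129 stayed within 0.1 and 3 moved, all when the all-gene median was subtracted: LPS in macrophages −0.15, LPS in sDCs 0.18 and LPS on IL-10 in sDCs 0.074 (from −0.03). Of 308 counts, 40 moved by over 1.5 times. With a pseudocount of 10, members higher with LPS in macrophages numbered 1, members lower with LPS on IL-10 numbered 0 in sDCs and 0 in mast cells, and members lower in untreated macrophages 1. Cox6b2 then missed 2-fold at 0.70 (LPS, macrophages), −0.66 and −0.98 (LPS on IL-10, sDCs and mast cells). With a minimum of 50 the same counts were 1, 0, 0 and 1, and IL-10 on LPS in mast cells had 0 lower. With the most abundant transcript, LPS in macrophages had 1 lower (Atp5c1 at −0.996), LPS on IL-10 in macrophages 2 higher, and untreated sDCs 2 and mast cells 1 higher. With centring, LPS in macrophages had 1 lower (Atp5c1 at −0.87) and in mast cells 1 higher. At 1.5-fold, LPS gave 4 higher and 8 lower in macrophages, 3 lower in neutrophils, 3 higher and 3 lower in sDCs and 2 higher in mast cells. LPS on IL-10 gave 3 higher and 8 lower in macrophages, 1 and 1 in neutrophils, and 2 higher in mast cells. IL-10 gave 1 higher in sDCs and 1 in mast cells. IL-10 on LPS gave 1 lower in macrophages, 1 higher in sDCs and 1 higher in mast cells. Of the member changes past 2-fold, none changed sign under an alternative that gave it a value, but centring moved other members across 0: with LPS, 17 members were above 0 in macrophages and 23 above the all-gene median, and 43 and 54 in sDCs. In untreated cells, where this threshold was chosen after seeing the data, 1.5-fold gave 36 higher and 4 lower in macrophages, 11 and 3 in neutrophils, 4 and 28 in sDCs, 2 and 34 in mast cells and 15 higher in eosinophils. Dropping the minimum moved no median or count, nor did protein-coding transcripts alone, an alternative chosen after seeing the data. Without replicate values, a change near 2-fold cannot be set against replicate spread.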
